A study of Mus musculus with 2 samples.

Results

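The NR4A genes Nr4a1, Nr4a2 and Nr4a3 encode a small family of orphan nuclear receptors. They were found by symbol among the 21938 protein-coding genes of the GENCODE annotation of GRCm38, and all 3 are described here. H3K4me3, a histone mark found around active transcript starts, was profiled in lung group 2 innate lymphoid cells (ILC2s) by CATCH-seq, a low-input native ChIP-seq which uses micrococcal nuclease to cut the chromatin and carrier DNA to limit losses. The ILC2s came from 8-week-old C57BL/6J offspring of mothers sensitized with alum alone and given PBS by the nose during gestation (F1PBS), or of mothers sensitized with alum plus ovalbumin and given ovalbumin by the nose (F1OVA). All mothers received alum and were bred to untreated males. Each group is 1 library, from 1 pregnant dam per the study's legends, so no value has a replicate, the groups could not be tested against each other, and the group cannot be told apart from the dam or the library. Each library has its own list of peaks, as deposited by the authors. A peak belonged to an NR4A gene when it overlapped the gene body or lay within 1000 bp of any of its transcript starts, and bases under such peaks within that window are called marked bases. By this rule 7 of the 42126 peaks of F1PBS and 4 of the 51610 peaks of F1OVA belonged to the NR4A genes.

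NR4A receptors are immediate early genes: their transcription starts within minutes of a stimulus, without new protein synthesis. Their ligand pocket is filled by bulky side chains, so activity is thought to follow the amount of protein rather than a hormone. In lymphocytes they are induced by antigen receptor signaling and by cAMP through CREB family factors, which bind the cAMP response element (CRE) or its half-site, and they act in tolerance, regulatory T cells and exhaustion. Nr4a1 (Nur77) is widely used as a reporter of receptor signaling in T and B cells, Nr4a2 (Nurr1) is best known for its role in dopamine neurons, and Nr4a3 (Nor1) overlaps with Nr4a1 in function in T cells. Nr4a1 and Nr4a2 can pair with the retinoid X receptors, and all family members can bind the NBRE, the element AAAGGTCA, as monomers.

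The 250 bases upstream of the main start of each gene are shown because CREB half-sites stand in all 3 of them. The main start was taken to be that of transcript Nr4a1-201, Nr4a2-203 and Nr4a3-201, with no rule behind the choice. Stretches before other starts are not described, such as the upstream start of Nr4a1 and the start of the coding transcript Nr4a2-201. Sequences are from the reference genome GRCm38, read in the direction of transcription, and capitals mark the CRE half-sites TGACG and CGTCA, the same element on either strand.
Nr4a1, chr15:101266596-101266845, plus strand: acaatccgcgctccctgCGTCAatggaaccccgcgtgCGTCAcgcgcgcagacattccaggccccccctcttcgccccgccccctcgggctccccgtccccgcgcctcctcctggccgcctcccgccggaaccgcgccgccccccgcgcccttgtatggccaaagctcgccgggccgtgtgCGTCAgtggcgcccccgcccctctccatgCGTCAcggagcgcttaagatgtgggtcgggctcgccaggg
Nr4a2, chr2:57124004-57124253, minus strand: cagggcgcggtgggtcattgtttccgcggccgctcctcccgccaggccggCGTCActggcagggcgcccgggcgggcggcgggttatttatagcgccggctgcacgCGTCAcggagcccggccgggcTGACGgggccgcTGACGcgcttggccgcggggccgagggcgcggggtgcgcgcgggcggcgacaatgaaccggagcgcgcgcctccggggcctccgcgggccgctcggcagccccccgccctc
Nr4a3, chr4:48044903-48045152, plus strand: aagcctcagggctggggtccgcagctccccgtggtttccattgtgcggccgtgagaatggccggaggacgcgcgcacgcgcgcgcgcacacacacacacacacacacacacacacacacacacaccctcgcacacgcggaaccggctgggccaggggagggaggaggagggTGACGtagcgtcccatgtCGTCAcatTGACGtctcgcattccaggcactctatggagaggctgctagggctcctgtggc
The stretch of Nr4a1 held 4 half-sites, whose first bases lay at −233, −213, −69 and −40 from the start. That of Nr4a2 held 4, at −200, −144, −123 and −111, and that of Nr4a3 held 3, at −79, −61 and −53. Among 32817 RefSeq promoters of GRCm38, searched in the same 250 bases before the start, 17.7% held at least 1 half-site, 0.689% held at least 3 and 0.137% held at least 4. The stretches were rich in G and C, with 74.4% in Nr4a1, 80% in Nr4a2 and 65.2% in Nr4a3. Of the 5583 RefSeq promoters with at least 65% G and C, 1.58% held at least 3 half-sites and 0.358% held at least 4. No stretch held the full CRE TGACGTCA, which 1.55% of promoters held, or the NBRE, which 1.34% held. The full CRE contains both half-site runs, so a match to it would also count as half-sites. The stretch of Nr4a2 also held 1 TATA box (TATAAA or its reverse TTTATA), as did 12.4% of promoters. None of the stretches held an AP-1 element (TGANTCA, 6.75% of promoters), a GATA element (AGATAA or TTATCT, 9.99%), a RUNX element (TGTGGT or ACCACA, 14%), a CArG box (1.47%) or the glucocorticoid receptor palindrome (0.00914%). None of the 11 half-sites lay under a listed peak of either library: the peaks nearest to them began at −93 in Nr4a2, at +289 in Nr4a3 and at +355 in Nr4a1. A match is a run of letters and not a measured binding site.

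Facts of the libraries come before the genes. Peaks had a median width of 315 bp in F1PBS and 249 bp in F1OVA. Each peak's fold and −log10 p, both the authors', were solved for the number of fragments at its summit and for the local background, and the median summit held 21 fragments in F1PBS and 18 in F1OVA. By the rule used for the NR4A genes, 58.2% of protein-coding genes had a peak in F1PBS and 51.9% in F1OVA. The ILC2 label was checked against 14 ILC2 markers, of which 11 had a peak within 1000 bp of a start in F1PBS and 8 in F1OVA, as did 51% and 42% of all protein-coding genes. Icos, Il13 and Klrg1 had none in either list, and Gata3, Il5 and Il7r had none in F1OVA. No marker of T cells, B cells, macrophages, neutrophils or fibroblasts, 29 in all, had a start peak in either list. Epithelial markers had one for 2 of 5 in F1PBS (Cdh1 and Epcam) and for 1 of 5 in F1OVA, a different gene (Sftpb), and endothelial markers for 1 of 4 (Kdr) in F1PBS and 0 of 4 in F1OVA. The part of other cells in the values here was not tested, and fewer cells with the mark cannot be told apart from less mark per cell.

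All 3 NR4A genes had a peak in F1PBS, and 2 of the 3, Nr4a1 and Nr4a2, had one in F1OVA. Marked bases summed to 4578 bp in F1PBS and 1482 bp in F1OVA, and each gene had fewer in F1OVA. Nr4a1 had 1800 bp in F1PBS and 409 bp in F1OVA, Nr4a2 had 1619 bp and 1073 bp, and Nr4a3 had 1159 bp and none. Per length of the window searched, Nr4a2 was marked over 8.91% in F1PBS and 5.90% in F1OVA, Nr4a1 over 8.36% and 1.90%, and Nr4a3 over 2.74% in F1PBS. Nr4a3 was 1 of the 1931 genes (15.1% of the 12768 with a peak in F1PBS) that had no peak in F1OVA. Both NR4A genes with peaks in both lists had more than 1.5-fold fewer marked bases in F1OVA, as did 46.3% of the 10837 such genes, while 4.74% had more than 1.5-fold more. The median ratio of F1OVA to F1PBS over these genes was 0.691, so fewer marked bases in F1OVA were common. The ratio of 0.663 for Nr4a2 lay near that median and just inside the 1.5-fold limit of 0.667, and with peaks near transcript starts alone it was 0.692, which is no longer past that limit, while with a −log10 q of at least 5 it was 0.344. The ratio of 0.227 for Nr4a1 lay at percentile 2.48 of all ratios.

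**Figure D1:**
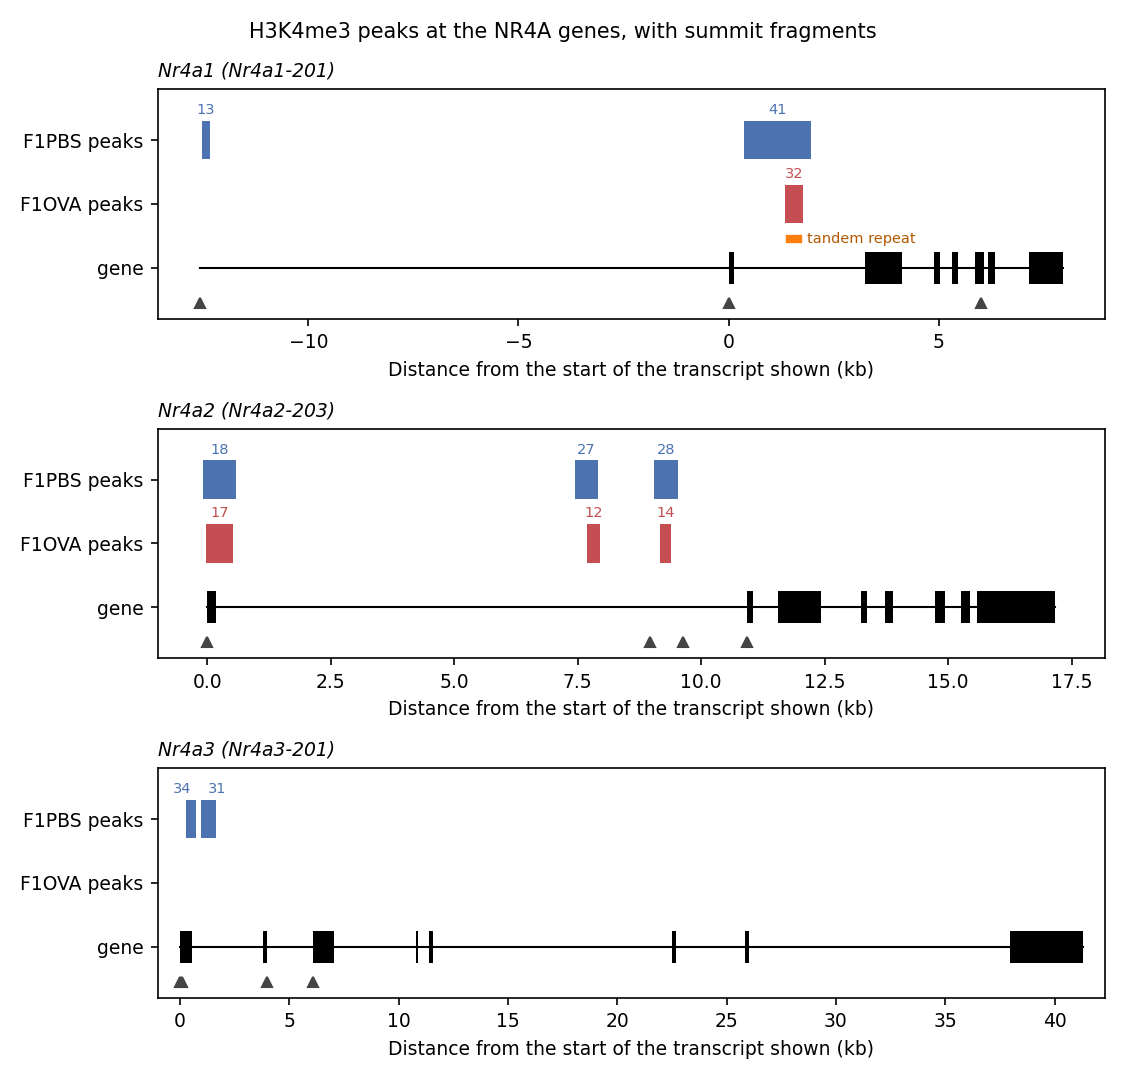
Peaks at the NR4A genes in F1PBS (blue) and F1OVA (red) by distance in kb from the start of the transcript shown, with the solved number of fragments at each summit above its bar. Black boxes are exons, triangles are transcript starts and the orange bar is the tandem repeat of Nr4a1. F1PBS has 7 peaks and F1OVA 4, and Nr4a3 has none in F1OVA.

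**Figure D2:**
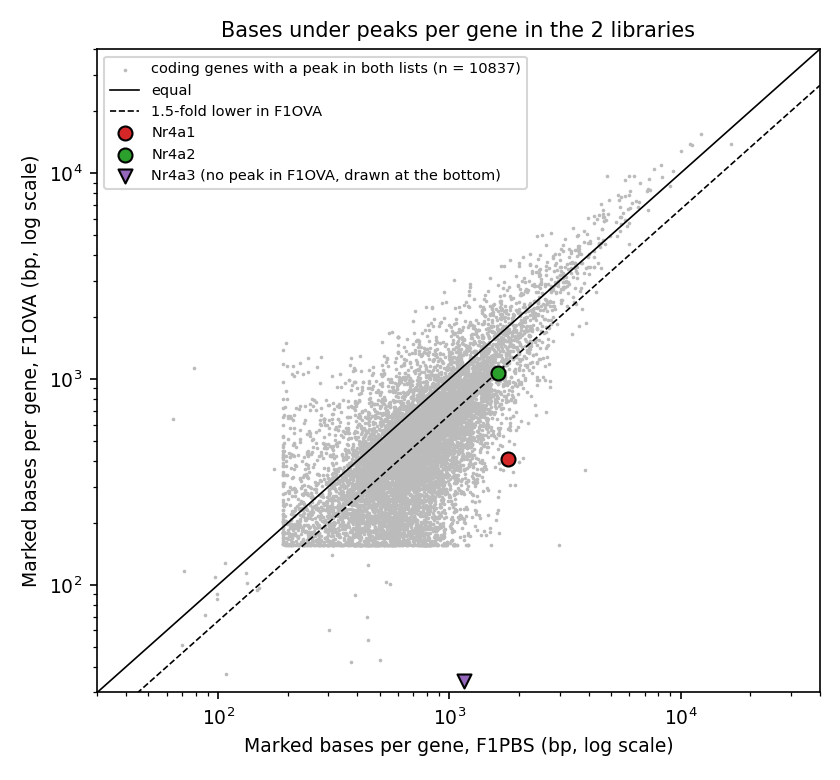
Marked bases per protein-coding gene in F1PBS (horizontal, bp, log scale) and F1OVA (vertical, bp, log scale), with 1 gray point per gene with a peak in both lists (n = 10837). Nr4a2 (1619 and 1073 bp) lies at the dashed line of a 1.5-fold difference, Nr4a1 (1800 and 409 bp) far under it, and Nr4a3 (1159 bp and none) is drawn as a triangle at the lower edge.

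Nr4a1 (ENSMUSG00000023034.7, chr15:101254269-101274795, plus strand) has annotated starts at 101254269, 101266846 and 101272861. In F1PBS a narrow peak of 190 bp (chr15:101254317-101254506) stood 48 bp past the upstream start, with 13 fragments at its summit and a −log10 q of 4.84, at percentile 14.6 of its list. F1OVA had no peak there. The main peak of F1PBS (chr15:101267201-101268810) was 1610 bp wide, wider than 99.9% of peaks in its list, and ran from +355 to +1964 of the start at 101266846. It lay wholly within the first intron of Nr4a1-201. Its summit held 41 fragments and its −log10 q of 15.7 ranked 5215 of 42126. In F1OVA the gene had 1 peak, of 409 bp (chr15:101268198-101268606), from +1352 to +1760, with 32 fragments at its summit and a −log10 q of 15.2 that ranked 3232 of 51610. The F1OVA peak lay within that of F1PBS, so 22.7% of the marked bases of F1PBS and 100% of those of F1OVA were shared, and the summits were 13 bp apart. Its place within the lists depended on the measure: by −log10 q the peak stood at percentile 87.6 in F1PBS and 93.7 in F1OVA, but by width at 99.9 and 82.6, and by summit fragments it also stood lower in F1OVA, at 93.0.

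Both of these summits fell in a tandem repeat in the intron, in which a unit of 15 bases recurs. The repeat is shown because it lies under the NR4A summits with the most fragments and the highest −log10 q in both libraries, and capitals mark exact copies of its most frequent unit, of which there are 11.
Nr4a1 intron 1, chr15:101268309-101268507, plus strand: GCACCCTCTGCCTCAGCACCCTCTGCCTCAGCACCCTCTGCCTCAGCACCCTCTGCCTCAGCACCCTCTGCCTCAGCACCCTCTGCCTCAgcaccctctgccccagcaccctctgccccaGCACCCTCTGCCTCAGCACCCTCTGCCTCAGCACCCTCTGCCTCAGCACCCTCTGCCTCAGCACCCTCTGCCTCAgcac
The repeat spans 199 bp, from +1463 to +1661. It made up 48.7% of the F1OVA peak and 12.4% of the wide F1PBS peak. The 75 bases around the F1PBS summit occurred 4 times in the genome and those around the F1OVA summit 3 times, all within 1000 bp of the summit itself. Such a recurrence was seen at 0.454% of the 12762 start peaks of F1PBS and 0.606% of the 10062 of F1OVA. A read within the repeat may thus have several possible places in it, and how reads were placed was not tested. The F1OVA peak held no CpG, and all 27 CpGs of the wide F1PBS peak lay outside the repeat, as did its 1 NBRE match. Outside the repeat the gene had 1601 marked bases in F1PBS and 210 in F1OVA, a ratio of 0.131. With peaks whose summit recurs within 1000 bp left out, the narrow upstream peak of F1PBS was the only peak of Nr4a1 in either list. The part of the repeat in the Nr4a1 peaks was not tested.

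Nr4a2 (ENSMUSG00000026826.13, chr2:57106830-57124003, minus strand) was the NR4A gene whose peaks were most alike in the libraries, with 3 in each list and each overlapping its counterpart. Shared bases came to 1024 bp, which was 63.2% of the marked bases of F1PBS and 95.4% of those of F1OVA. The peak at the upstream start, 57124003, was 669 bp wide in F1PBS (chr2:57123428-57124096) and 557 bp wide in F1OVA (chr2:57123478-57124034). Its summit held 18 fragments in F1PBS and 17 in F1OVA, and its −log10 q was 9.64 and 9.59. Summits lay 372 and 345 bases past the start, in the first intron of Nr4a2-203. The bases around the F1PBS summit are shown as those of the start with nearly equal values in both libraries, with no capitals since no motif searched was found in them.
Nr4a2 upstream start summit, chr2:57123581-57123681, minus strand: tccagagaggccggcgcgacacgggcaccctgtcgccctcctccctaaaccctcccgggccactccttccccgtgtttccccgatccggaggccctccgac
The other pair of peaks lay around the internal start at 57115038, which begins the transcript Nr4a2-201. One stood upstream of it, in an intron of the longer transcripts, 467 bp wide with 27 fragments in F1PBS (chr2:57116093-57116559) and 276 bp wide with 12 fragments in F1OVA (chr2:57116044-57116319). The other overlapped the first exon of Nr4a2-201, by 236 bases in F1PBS and 130 in F1OVA, and was 483 bp wide with 28 fragments in F1PBS (chr2:57114471-57114953) and 240 bp wide with 14 fragments in F1OVA (chr2:57114608-57114847). The −log10 q of these internal peaks was 8.99 and 9.40 in F1PBS, at percentiles 60.8 and 62.9, and 3.25 and 4.38 in F1OVA, at percentiles 1.89 and 11.6. The folds of the internal peaks, 4.67 and 4.72 in F1PBS and 3.72 and 4.18 in F1OVA, were below those of the upstream start in both libraries, 6.64 and 7.01. In F1PBS the internal summits had more fragments than the upstream start, over a local background of 263 and 271 fragments per 10 kb against 98, and in F1OVA they had fewer.

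Nr4a3 (ENSMUSG00000028341.9, chr4:48045153-48086447, plus strand) had 2 peaks in F1PBS and none in F1OVA. The first (chr4:48045442-48045904), 463 bp wide from +289 to +751 of the start at 48045153, had its summit in the first exon, with 34 fragments and a −log10 q of 7.73. The second (chr4:48046101-48046796), 696 bp wide from +948 to +1643, lay in the first intron, with 31 fragments and a −log10 q of 6.01. The bases around the intronic summit are shown as a signal listed in F1PBS alone, again with no capitals since no motif searched was found in them.
Nr4a3 intron 1 summit, chr4:48046300-48046400, plus strand: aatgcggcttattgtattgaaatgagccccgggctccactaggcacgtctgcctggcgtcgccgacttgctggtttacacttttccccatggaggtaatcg
By fragments the Nr4a3 summits ranked at percentiles 93.2 and 87.3 of the F1PBS list, but by fold at percentiles 11.3 and 4.95. The local background solved for them was 4.84 and 4.91 times the smallest of the list, at percentiles 97.6 and 97.9. A peak is listed only when it stands out from that background. No input was assumed, and whether this background holds fragments of the Nr4a3 peaks themselves was not tested. In F1PBS the peaks with a background within 10% of 4.84 times the smallest had a median of 30 summit fragments. In F1OVA the 1959 peaks with a background within 10% of 4.84 times the smallest had at least 20 fragments at their summit, with a median of 29. The F1OVA background at Nr4a3 itself was not measured, since it is known only at listed peaks. Over genes with a peak in both lists the background, relative to the smallest, had a median ratio of 0.816 in F1OVA to F1PBS, so fewer fragments may have been enough for a peak there. The absence of Nr4a3 from the F1OVA list does not show that the mark was absent. Of the 593 protein-coding genes whose highest −log10 q in F1PBS lay within 0.5 of that of Nr4a3, 33.9% (exact Clopper-Pearson 95% interval 30.1 to 37.9%, counting error only) had no peak in F1OVA.

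**Figure D3:**
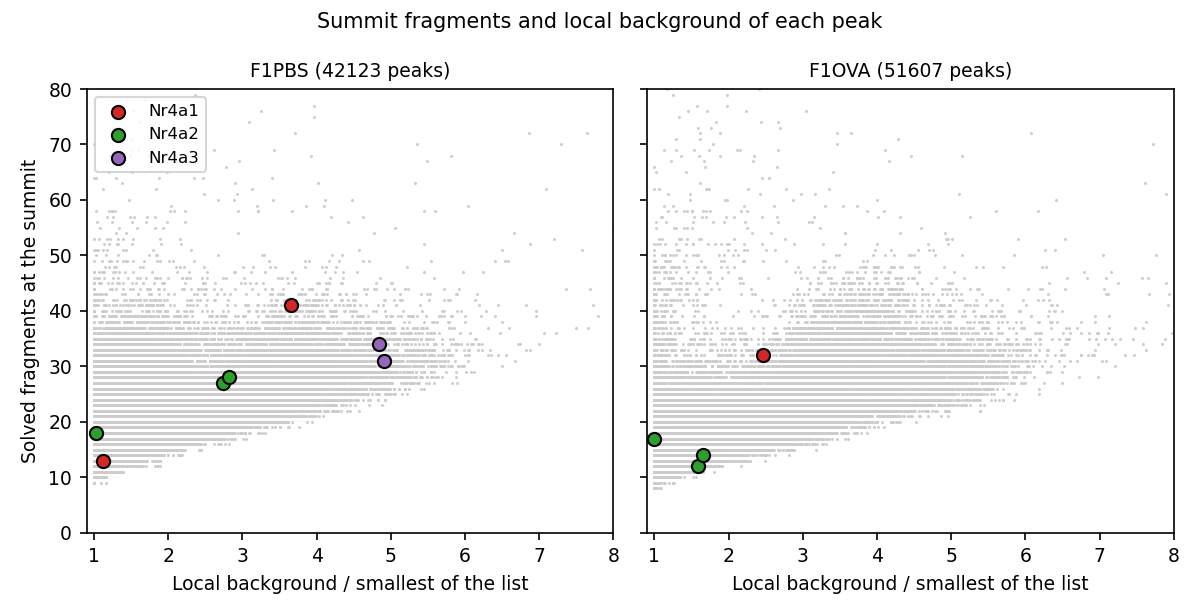
Solved fragments at the summit (vertical) against the local background as a multiple of the smallest in the list (horizontal) for the peaks of F1PBS (left) and F1OVA (right), in gray, with the NR4A peaks in color; peaks beyond the axes are not drawn. In F1PBS the Nr4a3 summits (34 and 31 fragments) lie among peaks of high background, and in F1OVA the internal Nr4a2 summits (12 and 14 fragments) lie near the lower edge of the listed peaks.

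Domains at starts, made by joining peaks at most 1000 bp apart, were compared with those of all protein-coding genes. In F1PBS the domain of Nr4a1 was 1610 bp wide, at percentile 97.2 of 11197 genes, that of Nr4a3 was 1355 bp wide, at percentile 93.6, and that of Nr4a2 was 669 bp wide, at percentile 50.9, against a median of 663 bp. In F1OVA Nr4a2 alone among the 3 had a start domain, of 557 bp at percentile 68.8 of 9220 genes, against a median of 409 bp. The Nr4a1 peak of F1OVA began 1352 bp from the nearest start and so formed none. For a gene with several starts the widest domain was taken. With peaks up to 3000 bp apart joined, that of Nr4a2 in F1PBS was made of its internal peaks, at percentile 97.3. Nr4a1 then stood at percentile 94.5 and Nr4a3 at 91.0, so the order by domain width changed. The order of the genes depended on the measure: by highest −log10 q in F1PBS it was Nr4a1, Nr4a2, Nr4a3 (15.7, 9.64 and 7.73), by summit fragments Nr4a1, Nr4a3, Nr4a2 (41, 34 and 28), and by highest fold Nr4a2, Nr4a1, Nr4a3 (6.64, 5.48 and 3.56). With 1 library per group no neighbors in either order can be said to differ beyond their spread.

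The nearest protein-coding gene on each side of each NR4A gene was looked at in the same way, at gaps from 9476 to 1508684 bp. Upstream of Nr4a1, Grasp had 673 bp marked in F1PBS and 636 bp in F1OVA, and downstream Atg101, an autophagy gene and the closest of them at 9476 bp, had 372 bp in F1PBS and none in F1OVA. On either side of Nr4a2, Gpd2, a mitochondrial glycerol phosphate dehydrogenase, had 937 and 465 bp, and Kcnj3, a potassium channel gene and the farthest, had 468 and 1143 bp. Beside Nr4a3, Sec61b had 770 and 596 bp and Stx17 had 497 and 434 bp. Nr4a3 and Atg101 were the only ones among these 9 genes without a peak in F1OVA.

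The genes most alike each NR4A gene were found by the sum of the differences in 4 percentiles, those of marked bases and of highest −log10 q in each of the 2 libraries. For Nr4a1 these were Ptpre, Map2k2 and Txnl1, with sums of 5.69, 7.06 and 7.84 percentile points. For Nr4a2 they were Camk2n1, Tent5a and Tet2, with sums of 3.71, 4.18 and 4.97. For Nr4a3 they were Bcl2l11, which encodes the pro-apoptotic protein BIM, Fam78a and Txnip, with sums of 0.759, 2.40 and 3.17, and with 1194, 1292 and 1192 bp marked in F1PBS and none in F1OVA. Genes without a peak in F1OVA can differ only in the F1PBS percentiles, so these sums cannot be compared with those of Nr4a1 and Nr4a2.

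Other genes of the pathway were taken as lists. Of 25 other immediate early genes, 23 had a peak in F1PBS and 16 in F1OVA, where the shares of all genes were 58.2% and 51.9%. With a −log10 q of at least 5, 23 of the 25 had one in F1PBS and 10 in F1OVA, beside 56.4% and 47.1% of all genes. Among the top 10000 peaks of each list by −log10 p, 4 of the 25 had one in F1PBS and 3 in F1OVA, beside 35.3% and 15.6% of all genes. The list thus stood above the share of all genes in both libraries with all peaks, but below it in F1OVA at the stricter −log10 q and in both libraries among the top peaks. Of the 23, 7 had none in F1OVA, as did 15.1% of all genes with a peak in F1PBS. Among the 16 with a peak in both, 14 had more than 1.5-fold fewer marked bases in F1OVA and 0 had more than 1.5-fold more, beside 46.3% and 4.74% of all such genes, and their median ratio was 0.388, beside 0.691 for all genes with both. Nfkbia, the inhibitor of NF-κB, had 1507 bp in F1PBS and 189 bp in F1OVA, Fosb, an AP-1 subunit, had 1477 and 587 bp, and Btg2, an antiproliferative gene, had 1466 and 640 bp. These genes are 3238, 7356 and 3951 bp long. Marked bases are summed over the whole gene, and the genes set beside the list were not matched for length. The part of gene length in these ratios was not tested. Ier3 and Egr1 had no peak in either list.

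Of 46 other nuclear receptors 29 had a peak in F1PBS and 27 in F1OVA, where the shares of all genes were 58.2% and 51.9%. The 26 with a peak in both had a median ratio of 0.810, with 10 more than 1.5-fold lower in F1OVA and 3 more than 1.5-fold higher. The shares of all genes with a peak in both lists were again 46.3% and 4.74%. Nr3c2, the mineralocorticoid receptor, had 2604 and 2440 bp, Rora, which ILC2s need to develop, had 2416 and 2241 bp, and Esr1, the estrogen receptor, had 1888 and 1995 bp. These genes are 345571, 734461 and 394022 bp long, and their bases were summed over the whole gene. They had 7, 5 and 7 peaks in F1PBS and 10, 7 and 7 in F1OVA. With transcript starts alone, 25 of the 46 receptors had a peak in F1PBS and 20 in F1OVA. The shares of all genes were then 51% and 42%. Of 16 genes whose products induce NR4A transcription, 15 had a peak in both lists, as did 10819 of the 21911 genes with a unique symbol. Their median ratio was 0.690, with 7 lower and 1 higher by more than 1.5-fold (46.3% and 4.74% of all genes with a peak in both lists). Mef2a, a MEF2 factor, had 1653 and 1975 bp, Ep300, a histone acetyltransferase, had 1263 and 719 bp, and Srf, serum response factor, had 1149 and 644 bp. Mef2c had no peak. Of 8 genes linked to NR4A factors in T cells, 4 had a peak in F1PBS, 3 in F1OVA and 2 in both (58.2% and 51.9% of all genes had one in F1PBS and F1OVA), with a median ratio of 0.477 over these 2. Tox, a factor of T cell exhaustion, had 1462 and 572 bp, Ikzf2 (Helios) had 348 and 196 bp, and Pdcd1 (PD-1) had 525 bp in F1PBS and none in F1OVA. Foxp3, the regulatory T cell factor, named after its values were seen, had none in F1PBS and 267 bp in F1OVA, with a −log10 q of 4.72. Irf4, also named after its values were seen, had 220 bp in F1PBS, with a −log10 q of 4.53, and none in F1OVA. With a −log10 q of at least 5, 3 of the 8 had a peak in F1PBS and 2 in F1OVA. Ctla4, Tox2 and Havcr2 had no peak. These lists are described by their counts and were given no test.

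**Figure D4:**
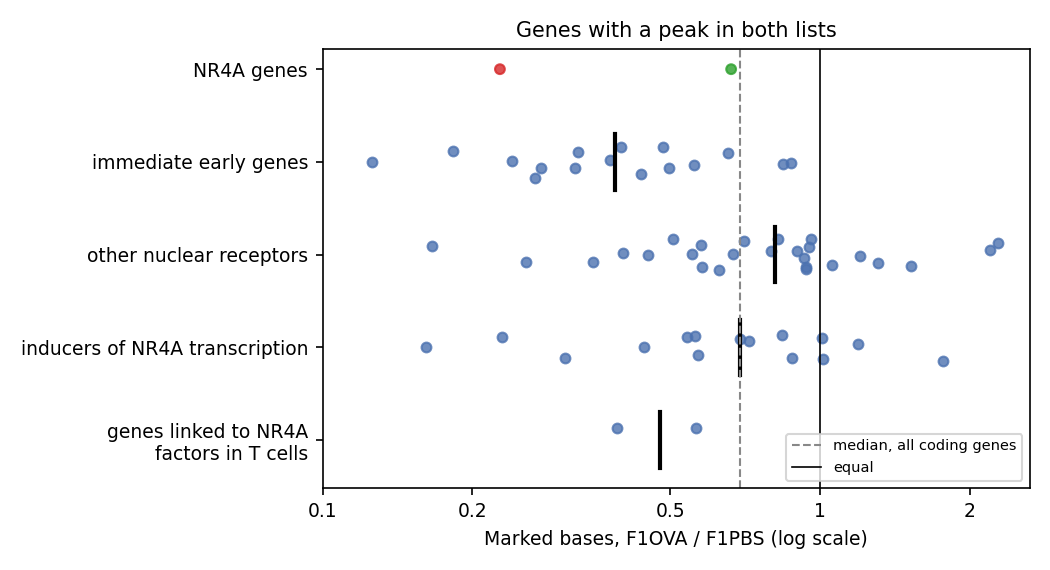
Marked bases in F1OVA over those in F1PBS (log scale) for genes with a peak in both lists, with 1 point per gene, a black bar at the median of each list, a solid line at equal values and a dashed line at the median of all protein-coding genes (0.691). Nr4a1 (red, 0.227) and Nr4a2 (green, 0.663) stand in the top line, and the median of the immediate early genes (0.388) lies left of the dashed line.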

How the data were processed

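Reads were trimmed, aligned to GRCm38 (mm10) with Bowtie 2 and cleared of duplicates by the authors. The peak caller, its threshold and any use of the input are not given in the sources used here, and the study's reporting summary says that no peaks were called. For all but a few peaks the deposited score equals the −log10 q times 10 with decimals dropped. The authors' fold is a ratio of signal at the summit to local background, and their −log10 p and −log10 q, from p-values and q-values, set each peak against that background. The deposited columns also give positions, read on GRCm38 and counted from 1. None is scaled between libraries, so values were ranked within a list. Total reads per library are unknown, so depth is given as solved fragments.

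Summit fragments and background were solved from fold and −log10 p under a Poisson model with 1 added to both, with no input assumed. They are derived values and not the authors' own. The solution, overlaps and repeat search were tested on simulated data. A percentile is the place of a value among all peaks or genes with a value. The like genes, neighbors and lists followed 1 rule: the nearest coding gene on each side, the 3 genes most alike each NR4A gene, the 3 genes with most marked bases in F1PBS in each list, and its genes without a peak where there were 5 or fewer. Foxp3 and Irf4 were named outside this rule, after their values were seen. Members and lists were chosen with earlier results of these data known. Motifs searched on both strands were the CRE, its half-site, the NBRE, AP-1, CArG, TATA, GATA and RUNX elements and the glucocorticoid receptor palindrome. Promoters were those of RefSeq. Scripts ran in Python 3.11.15, with pandas 2.3.3, numpy 2.4.6 and scipy 1.17.1, and figures were drawn with matplotlib 3.10.9.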

Additional observations from a re-analysis of the deposited data

How the results depend on the processing

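No paired analysis was possible because each group has 1 library. No alternative gave an NR4A gene more marked bases in F1OVA than in F1PBS. With distances of 500 bp or with the 5′ end of the gene as its only start, the NR4A values changed by no more than the limits set. At 2000 bp 52.8% of coding genes had a peak in F1OVA. With transcript starts alone F1OVA had 2 NR4A peaks, marked bases were 2582 bp in F1PBS and 797 bp in F1OVA, and coding genes with a peak were 51% and 42%. Nr4a1 then had no peak in F1OVA, and the ratio of Nr4a2 was 0.692, no longer past 1.5-fold. With a −log10 q of at least 5 F1OVA had 2 NR4A peaks with 966 bp, the ratio of Nr4a2 was 0.344, 2 peaks of F1PBS overlapped one of F1OVA, and coding genes with a peak were 56.4% and 47.1%. With the 10000 peaks of highest −log10 p, 1 NR4A peak was left in each list, that of Nr4a1, with 1610 bp and 409 bp and 1 overlap, and coding genes with a peak were 35.3% and 15.6%. An overlap of at least 50% of both peaks left 1 shared pair. An alternative chosen after seeing the data, without peaks whose summit bases recur within 1000 bp, gave 2968 marked bases in F1PBS and 51% of coding genes in F1OVA. Each alternative changes by construction which peaks, bases or overlaps are counted, and with starts alone the wide peaks are also cut at 1000 bp from a start. List counts moved past 1.5 times in 9 of 56 values, 8 of them with the top peaks alone. Ranks depended on the measure: by width and by summit fragments Nr4a1 stood lower in F1OVA than in F1PBS, the opposite of its order by −log10 q. With peaks up to 3000 bp apart joined, the widest domain of Nr4a2 stood at percentile 97.3 in F1PBS and 97.6 in F1OVA. That domain was made of its internal peaks and was not the one at the upstream start. With 1 library per group, no replicate could be left out.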

Other observations

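Within 50 kb of the NR4A genes, peaks outside any of their windows were also listed. Upstream of Nr4a3, 17.6 kb from its start and with no annotated start nearer than that of Nr4a3 itself, F1PBS had a peak of 870 bp (chr4:48026823-48027692) with 27 summit fragments and a −log10 q of 18.5. F1OVA had 2 peaks over the same stretch, of 309 bp (chr4:48026815-48027123) and 209 bp (chr4:48027448-48027656), with 16 and 26 summit fragments and a −log10 q of 8.02 and 17.9. The summit of the second F1OVA peak, which ranked at percentile 96.3 of its list, thus had nearly as many fragments as that of F1PBS, beside the start of Nr4a3, where F1OVA had no peak. Downstream of Nr4a2, 48.4 kb from its start, both libraries had a peak, with 29 summit fragments in F1PBS and 28 in F1OVA and a −log10 q of 19.2 and 20.2. Other overlapping flank peaks differed more, in both directions. Those 45.2 kb upstream and 65.4 kb downstream of the Nr4a2 start had 29 and 17 summit fragments in F1PBS and 37 and 22 in F1OVA. Those 42.4 kb upstream of Nr4a1 and at the start of Stx17 had 25 and 33 in F1PBS and 13 and 20 in F1OVA. Whether these peaks bear on the NR4A genes was not tested.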
